A study of Mus musculus with 10 samples.

Results

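The p53 target genes described here are 10 genes taken by symbol from the 55573 annotated genes: Cdkn1a, Ccng1, Mdm2, Phlda3, Zmat3, Trp53inp1, Sesn2, Aen, Eda2r and Tnfrsf10b. All 10 were found in the count data. They were measured by bulk RNA sequencing in hematopoietic stem and progenitor cells (HSPCs) from the bone marrow of C57BL/6 mice (C57BL/6J in the series' design text), labelled as 16 weeks old. Every mouse in both groups had received 500 cGy of total body radiation, and RNA was profiled 6 weeks later. The 5 Saline libraries came from mice injected under the skin with saline and the 5 EGF libraries from mice given epidermal growth factor by the same route. The sources used here give neither the dose and days of EGF nor the gate that defined the HSPCs. There is no unirradiated group, so the values show how irradiated marrow cells with and without EGF compared, and not what radiation did. Nothing in the labels ties the libraries to separate mice. The p-values therefore reflect the spread among the libraries, which may be technical.

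The tumour suppressor p53 is a transcription factor that is held at a low level by the ubiquitin ligase MDM2 and is stabilised when DNA breaks activate kinases such as ATM. It then binds paired half-sites in DNA and switches on genes of cell cycle arrest, of its own feedback control, of stress metabolism and of cell death. In blood-forming cells, this response governs the loss of stem and progenitor cells after radiation, and p21, the product of Cdkn1a, restrains their division.

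The binding site itself can be seen next to the transcription start of some of these genes. RefSeq promoter windows (GRCm38.p6), each running from 250 bases before to 50 bases after a start of transcription, were available for 7 of the 10 genes and not for Zmat3, Trp53inp1 and Tnfrsf10b. Windows were searched for 2 adjoining copies of the p53 half-site consensus of 10 bases. Its core is CWWG, where W is A or T, and the pair reads the same on both strands. The C and G of both cores were kept, and at most 2 mismatches were allowed at the other bases. Such a pair was found for Cdkn1a and Ccng1, shown here because they are the letters by which a p53 target is recognised. Capitals mark the 20 bases of the pair and lower case the 5 bases on each side.
Cdkn1a: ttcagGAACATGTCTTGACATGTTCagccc
Ccng1: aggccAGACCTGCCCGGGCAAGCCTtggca
The Cdkn1a pair lies at chr17:29090928-29090947 on the plus strand, beginning 51 bases before the upstream of its 2 RefSeq starts. The window of the other Cdkn1a start held no such pair and 0 exact half-sites. The Ccng1 pair lies at chr11:40755462-40755481 and is read on the minus strand, beginning 195 bases before the start. Each has 1 mismatch to the consensus. Of all 32851 windows, 0.326% held a pair by this definition and 8.36% held at least 1 exact half-site. An exact half-site was also present in windows of Aen and Mdm2. A match is a description of the letters, and no match says only that they are not in the window.

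Sequencing depth was similar in all libraries, from 6805106 to 8370820 counts. EGF replicate 5 stood apart: 12731 genes had a count in it, against 18734 to 20046 in each of the other 9 libraries. It lay above all 5 Saline libraries for 36.3% of the 12874 genes tested and below all of them for 50.7%. Fold changes and counts of genes are therefore given with and without it where both fits held the gene. Of 10 HSPC marker genes, 9 had a count in every library, and their summed level was 1255 to 1500 CPM in the Saline libraries (CPM is a gene's count as a share of the library's total, scaled by TMM, which evens out differences in composition) and 1345 to 1665 CPM in the EGF libraries. Procr, the exception, was at 0 in EGF replicate 5. Plasma cell markers summed to 685 to 1469 CPM in Saline and 167 to 916 CPM in EGF libraries, and neutrophil markers to 5.33 to 360.3 CPM and 1.997 to 475 CPM. T and NK cell markers summed to 41.4 to 56.7 CPM in Saline and 3.92 to 48.8 CPM in EGF libraries, with 5 of the 6 genes at 0 in EGF replicate 5. They had the smallest p of 11 library measures (exact two-sided permutation p = 0.0397, adjusted p = 0.393). No library measure passed an exact two-sided permutation test after adjustment over 11 measures. In bulk RNA, fewer cells of a type and less RNA per cell cannot be told apart.

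No difference between EGF and Saline libraries was detected for any of the p53 target genes. In edgeR's quasi-likelihood fit, 0 of the 9 genes tested passed the threshold of 0.05 on the p-value adjusted over all 12874 genes by the Benjamini-Hochberg method (range 0.641 to 0.976), and 0 had an unadjusted p under 0.05. Phlda3 had too few counts to be tested. The background is almost as bare: 0.00777% of all genes tested, a single gene, passed as higher with EGF and 0% as lower, while 8.87% had an unadjusted p under 0.05. DESeq2 called 0.531% of the genes it tested, and it called 0 of these genes, giving no adjusted p for Eda2r and Tnfrsf10b. Levels of the 2 groups overlapped for all 10 genes, where 3.27% of all genes tested had groups that did not overlap. The log2 fold change (EGF minus Saline) was above 0 for 3 genes and below 0 for 6, with a median of -0.17 against -0.012 over all genes tested. When EGF replicate 5 was left out, 4 were above and 5 below, and the median was -0.073, against -0.00023 over 13104 genes. In that fit 0 of the 9 passed, where 0.0611% of all genes did and 15.8% had an unadjusted p under 0.05, and the groups again overlapped for all 10 genes, where 5.01% of all genes had groups that did not.

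**Figure D1:**
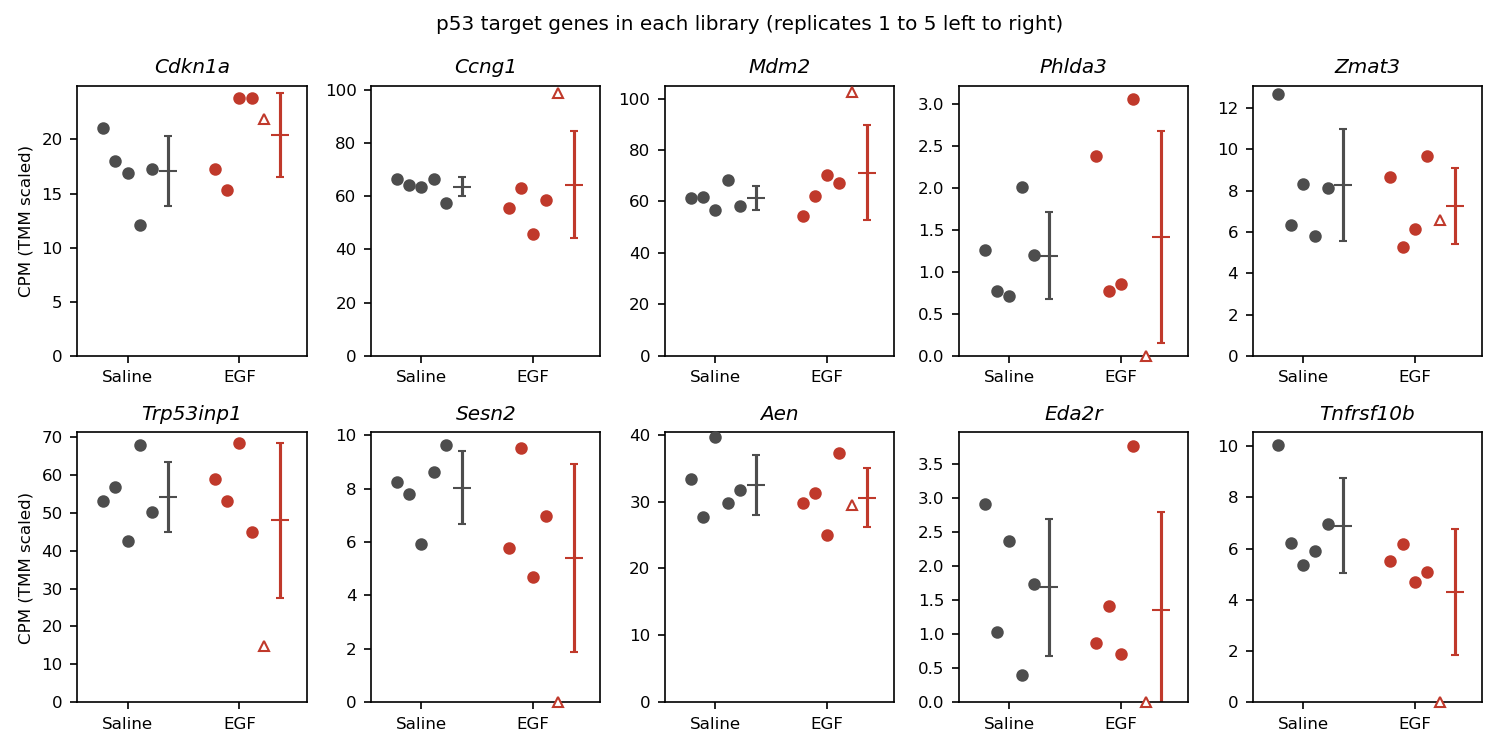
Level of each p53 target gene in CPM (TMM scaled, linear axes from 0) in every Saline library (grey) and EGF library (red), replicates 1 to 5 from left to right, with the mean and SD of each group of 5 beside them. The open triangle is EGF replicate 5, which is the highest library for Mdm2 and Ccng1 and has 0 counts of Phlda3, Sesn2, Eda2r and Tnfrsf10b.

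Cdkn1a and Ccng1 stand for the arrest branch. Cdkn1a, on chromosome 17 from 29090976 to 29100727 (GRCm38, plus strand), encodes p21, an inhibitor of cyclin-dependent kinases. The opposite-strand gene AC167363.2 covers 7.7% of its exonic sequence. The strand setting of the counting is not given, so how reads from that stretch were counted is not known. Its level was 21.1, 18.0, 16.9, 12.1 and 17.2 CPM in Saline replicates 1 to 5 and 17.3, 15.3, 23.8, 23.8 and 21.9 CPM in EGF replicates 1 to 5. EGF replicates 3, 4 and 5 were above all Saline libraries and EGF replicates 1 and 2 within their range. The means were 20.4 ± 3.90 CPM for EGF and 17.1 ± 3.23 CPM for Saline (SD, n = 5 each), a log2 fold change of 0.26 with a 95% interval from -0.18 to 0.70 (edgeR adjusted p = 0.660). With EGF replicate 5 left out it was 0.23 (interval -0.16 to 0.62), so this was the gene least affected by that library among those above 0.

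Ccng1, on chromosome 11 from 40748552 to 40755311 (minus strand), encodes cyclin G1, which recruits a phosphatase to MDM2 and belongs to the feedback on p53. It was at 66.5, 64.3, 63.5, 66.3 and 57.4 CPM in Saline replicates 1 to 5, the tightest group of Saline values beside its mean among the 10 genes. In EGF replicates 1 to 5 it was at 55.7, 63.0, 45.9, 58.5 and 98.6 CPM. EGF replicate 5 thus lay above every other library and EGF replicates 1 and 3 below every Saline library. Over all 10 libraries the log2 fold change was 0.017 (95% interval -0.37 to 0.41, edgeR adjusted p = 0.976). Leaving out EGF replicate 5 turned it to -0.19 (interval -0.39 to 0.0087, edgeR adjusted p = 0.337). This was the smallest adjusted p among the 9 genes in that fit and missed the threshold.

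Mdm2, on chromosome 10 from 117688875 to 117710758 (minus strand), encodes the ligase that degrades p53 and is itself induced by p53. Its level in Saline replicates 1 to 5 was 61.4, 61.9, 56.7, 68.4 and 58.4 CPM, and in EGF replicates 1 to 5 it was 54.3, 62.1, 70.2, 67.4 and 102 CPM. The high mean with EGF, 71.3 ± 18.4 CPM against 61.3 ± 4.496 CPM (SD, n = 5 each), rests on EGF replicate 5. The log2 fold change went from 0.22 (95% interval -0.13 to 0.56) to 0.049 (interval -0.14 to 0.24) without that library, which on the linear scale spans 0.905-fold to 1.18-fold. Mdm2 was the most narrowly bounded of the 9 genes in that fit.

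Phlda3 and Zmat3 act on survival signalling and RNA. Phlda3, on chromosome 1 from 135766119 to 135769136 (plus strand), encodes a small lipid-binding protein that competes with AKT for the membrane. It was sampled by 10, 6, 6, 15 and 9 counts in Saline replicates 1 to 5 and by 19, 6, 6, 26 and 0 counts in EGF replicates 1 to 5. EGF replicates 1 and 4 were above all Saline libraries and EGF replicate 5 was below all. The means were 1.42 ± 1.26 CPM for EGF and 1.20 ± 0.521 CPM for Saline (SD, n = 5 each), and 1.77 ± 1.14 CPM (SD, n = 4) for EGF with replicate 5 left out. With no filter on low counts its log2 fold change was 0.24, with an interval from -1.45 to 1.93, so even a change of 2-fold either way was not bounded at this depth.

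Zmat3, on chromosome 3 from 32334792 to 32366014 (minus strand), encodes an RNA-binding zinc finger protein. It was at 12.7, 6.35, 8.32, 5.78 and 8.15 CPM in Saline replicates 1 to 5 and at 8.65, 5.28, 6.13, 9.67 and 6.58 CPM in EGF replicates 1 to 5. Saline replicate 1 was the highest of all 10 libraries, and without it the log2 fold change went from -0.18 (95% interval -0.84 to 0.47, edgeR adjusted p = 0.830) to 0.023. With EGF replicate 5 left out instead, it was -0.15 (interval -0.71 to 0.41).

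Trp53inp1 and Sesn2 belong to the stress branch. Trp53inp1, on chromosome 4 from 11156431 to 11174379 (plus strand), encodes a nuclear and autophagy-linked stress protein. Saline replicates 1 to 5 had 53.2, 56.8, 42.5, 67.9 and 50.2 CPM and EGF replicates 1 to 5 had 58.9, 53.1, 68.3, 44.8 and 14.8 CPM. EGF replicates 1 to 4 spanned about the Saline range, with EGF replicate 3 just above it, and EGF replicate 5 was far below. The log2 fold change was -0.17 (95% interval -0.87 to 0.52) with all libraries and 0.056 (interval -0.24 to 0.35) without EGF replicate 5.

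Sesn2, on the same chromosome from 132492032 to 132510501 (minus strand), encodes sestrin 2, a leucine sensor that restrains mTORC1. Its level was 8.25, 7.78, 5.94, 8.60 and 9.61 CPM in Saline replicates 1 to 5 and 5.77, 9.53, 4.71, 6.96 and 0 CPM in EGF replicates 1 to 5. EGF replicates 1, 3 and 5 lay below all Saline libraries and the other two within their range. The log2 fold change was -0.57 (95% interval -2.13 to 0.98) with all libraries and -0.25 (interval -0.73 to 0.23, edgeR adjusted p = 0.601) without EGF replicate 5.

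Aen, Eda2r and Tnfrsf10b are genes of the death branch. Aen, on chromosome 7 from 78895854 to 78911209 (plus strand), encodes a nuclease that cuts DNA in apoptotic cells. It was at 33.4, 27.8, 39.6, 29.7 and 31.8 CPM in Saline replicates 1 to 5 and at 29.8, 31.3, 24.97, 37.3 and 29.4 CPM in EGF replicates 1 to 5. EGF replicate 3 was below all Saline libraries and the other EGF libraries were within their range. The means, 30.6 ± 4.44 CPM and 32.4 ± 4.52 CPM (SD, n = 5 each), differed by less than either SD, with a log2 fold change of -0.086 (95% interval -0.40 to 0.23, edgeR adjusted p = 0.836) and of -0.073 (interval -0.35 to 0.21) without EGF replicate 5.

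Eda2r, on chromosome X from 97333840 to 97377216 (minus strand), encodes the receptor for the EDA-A2 form of ectodysplasin. It had 23, 8, 20, 3 and 13 counts in Saline replicates 1 to 5 and 7, 11, 5, 32 and 0 counts in EGF replicates 1 to 5. Its means were 1.36 ± 1.44 CPM in the EGF group and 1.69 ± 1.01 CPM in the Saline group (SD, n = 5 each), closer together than either SD. The log2 fold change was -0.31 (95% interval -2.11 to 1.499) with all libraries and 0.011 (interval -1.22 to 1.24) without EGF replicate 5, so even a change of 2-fold was not bounded.

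Tnfrsf10b, on chromosome 14 from 69767472 to 69784411 (plus strand), encodes the mouse death receptor for TRAIL. It was at 10.03, 6.22, 5.35, 5.91 and 6.94 CPM in Saline replicates 1 to 5 and at 5.52, 6.18, 4.71, 5.07 and 0 CPM in EGF replicates 1 to 5. EGF replicates 3, 4 and 5 lay below every Saline library. The group means were 4.30 ± 2.46 CPM for EGF and 6.89 ± 1.84 CPM for Saline (SD, n = 5 each), and 5.37 ± 0.63 CPM (SD, n = 4) with EGF when replicate 5 was left out. The log2 fold change was -0.68 (95% interval -2.21 to 0.85, edgeR adjusted p = 0.735) and, without EGF replicate 5, -0.36 (interval -0.83 to 0.11, edgeR adjusted p = 0.434). It was the lowest value among the 9 genes in both fits.

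**Figure D2:**
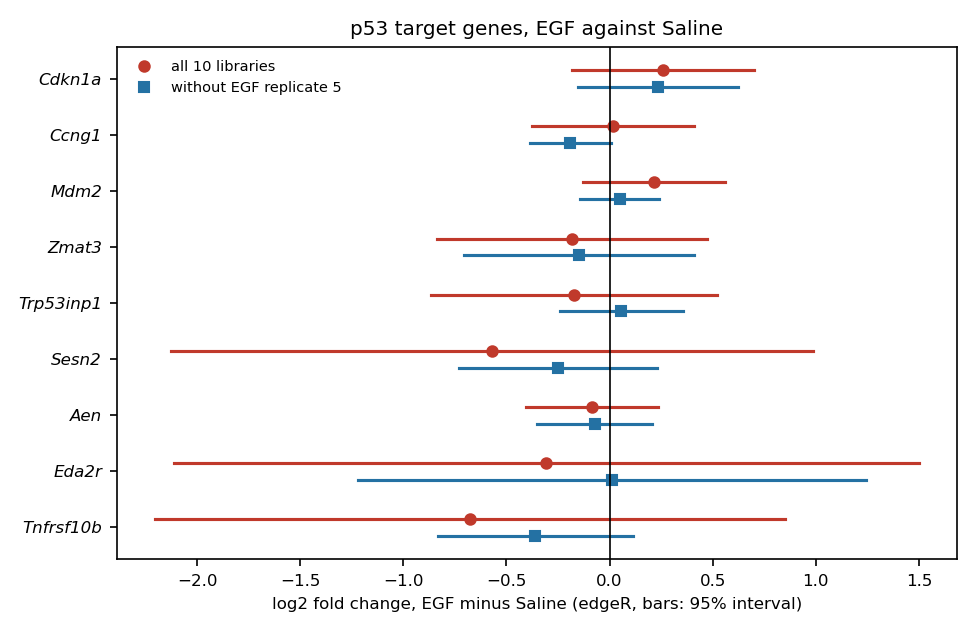
Log2 fold change of the 9 p53 target genes tested, EGF minus Saline by edgeR, with 95% intervals, from all 10 libraries (red circles) and without EGF replicate 5 (blue squares). All intervals include 0. Those of Sesn2 and Tnfrsf10b narrow most without that library, and that of Eda2r stays wider than a 2-fold change either way.

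How tightly these data bound an effect differed between genes. With all libraries, the 95% interval lay inside a 2-fold change either way for 6 of the 9 genes tested, the exceptions being Sesn2, Eda2r and Tnfrsf10b. Without EGF replicate 5 it did so for 8, the exception being Eda2r. The intervals of all 9 included 0 in both fits. The biological coefficient of variation is the spread between replicates beyond counting error. edgeR's estimate of it, which is drawn towards a trend over all genes, was lower without EGF replicate 5 for all 9 genes. Its median over them fell from 0.34 to 0.20, where over all genes tested it fell from 0.29 to 0.16. Sesn2 went from 0.74 to 0.22 and Tnfrsf10b from 0.71 to 0.22, while Cdkn1a (0.25 and 0.20) and Aen (0.19 and 0.15) changed less. The SD of the EGF libraries in CPM did not fall for every gene. Without EGF replicate 5 it rose from 3.90 to 4.41 for Cdkn1a, from 1.83 to 2.07 for Zmat3 and from 4.44 to 5.07 for Aen. It fell for the other genes tested.

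The 4 genes at 0 counts in EGF replicate 5 were sampled in every other library. Sesn2 had 33 to 74 counts in the other 9 libraries, Tnfrsf10b 33 to 79, Eda2r 3 to 32 and Phlda3 6 to 26. A count of 0 there allows up to 0.42 CPM (3 counts), for counting error only. Such zeros were common in that library. Among all genes with a mean of 50 to 100 counts in the other 9, the bin that holds Sesn2, 17.4% were at 0 in EGF replicate 5 and 0.65% in EGF replicate 4. In the bin of 20 to 50 counts, which holds Tnfrsf10b, it was 41.3%, and in the bin of 5 to 20 counts, which holds Phlda3 and Eda2r, 65.6%. Whether low complexity of that library set the values of these genes was not tested.

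Across genes, levels per length of exon spanned a wide range in the Saline libraries. The values in this paragraph are levels in CPM per kilobase of exonic bases (mean ± SD, n = 5). Ccng1 was highest at 18.1 ± 1.05, above 82.0% of the genes tested, followed by Mdm2 at 12.1 ± 0.88 and Trp53inp1 at 8.36 ± 1.44. Aen at 5.59 ± 0.78 and Cdkn1a at 4.80 ± 0.91 stood near the middle of all genes tested, at the 49.9th and 45.4th percentile. Below them came Sesn2 at 2.31 ± 0.39, Tnfrsf10b at 1.26 ± 0.34, Phlda3 at 0.77 ± 0.33, Zmat3 at 0.72 ± 0.24 and Eda2r at 0.29 ± 0.17. The Saline libraries did not overlap between Ccng1 and Mdm2, Mdm2 and Trp53inp1, Cdkn1a and Sesn2, or Zmat3 and Eda2r. The other neighbours in this order overlapped.

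**Figure D3:**
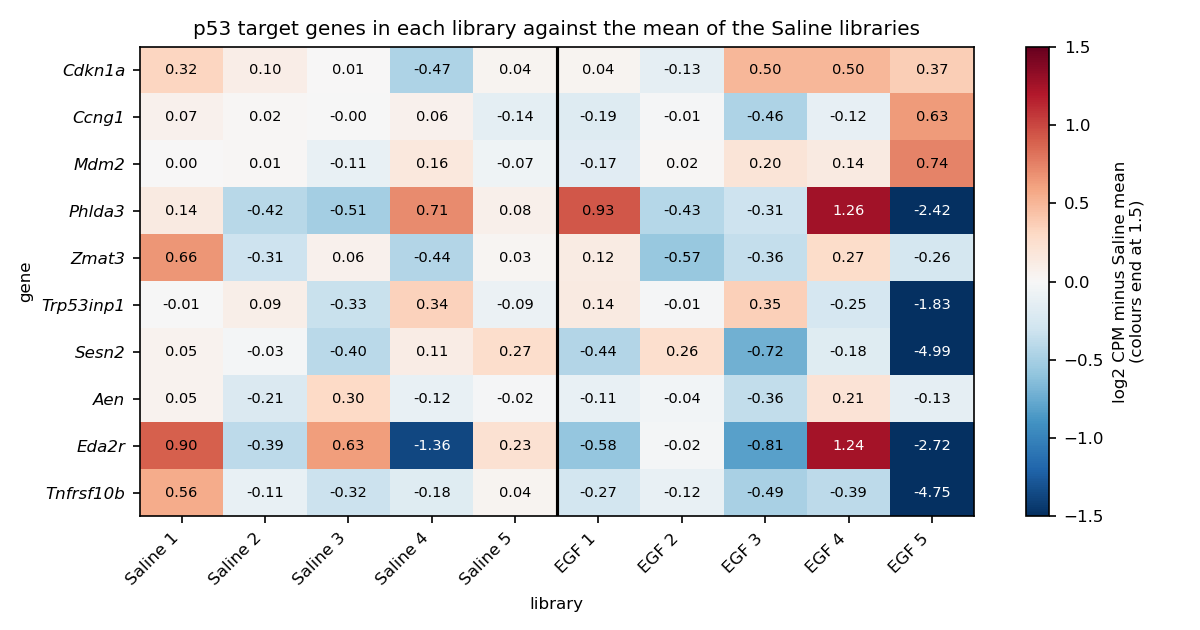
Log2 CPM (prior count of 2) of each p53 target gene (rows) in each library (columns) minus the mean of the 5 Saline libraries. Colours end at 1.5 either way. Within either group, single libraries run from blue to red between genes: EGF replicate 4 is 1.26 above for Phlda3 and 0.39 below for Tnfrsf10b.

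The genes did not move as one block from library to library. EGF replicate 4 was the highest of the 9 libraries without EGF replicate 5 for Cdkn1a, Phlda3 and Eda2r, with EGF replicate 3 level with it for Cdkn1a. Saline replicate 1 was the highest for Ccng1, Zmat3 and Tnfrsf10b. EGF replicate 3 was the highest for Mdm2 and Trp53inp1 and the lowest for 4 of the genes. Over all genes tested, 18.2% were highest of the 9 in EGF replicate 4, 13.6% in EGF replicate 3 and 12.4% in Saline replicate 1. Saline replicate 1 and EGF replicates 3 and 4 also had little neutrophil RNA, and in Saline replicate 1 plasma cell markers were at 1469 CPM and in EGF replicate 4 at 437 CPM. The part of these cells in the levels of p53 target genes was not tested.

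Over those 9 libraries, 45 pairs of the 10 genes were compared by the correlation of log2 CPM, of which 25 were above 0 and 20 below, with a median r of 0.056. None passed an exact permutation test after adjustment over the 45 pairs, and 5 had an unadjusted p under 0.05. The strongest was Trp53inp1 against Aen, which ran in opposite directions (r = -0.90, exact permutation p = 0.00198, adjusted p = 0.0501, rho = -0.90, exact permutation p = 0.00203, adjusted p = 0.0911). It kept r = -0.93 without the 2 libraries farthest from the median of Trp53inp1, and r = -0.90 with the group means removed. Trp53inp1 against Eda2r gave r = -0.88 (exact permutation p = 0.00223, adjusted p = 0.0501, rho = -0.85, exact permutation p = 0.00607, adjusted p = 0.0911), with r = -0.77 without the 2 farthest libraries. Aen and Eda2r ran in the same direction (r = 0.78, exact permutation p = 0.0126, adjusted p = 0.189, rho = 0.87, exact permutation p = 0.00451, adjusted p = 0.0911), with r = 0.84 without the 2 farthest. With EGF replicate 5 included, the r of Trp53inp1 was -0.17 with Aen and 0.47 with Eda2r.

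The genes most like Cdkn1a and Mdm2 across the 10 libraries were picked for that likeness among 6914 genes with a mean of at least 20 CPM, so their correlations are a description. For Cdkn1a they included the predicted gene Gm45902 (r = 0.97, rho = 0.90) and the scaffold gene Dlg4 (r = 0.90, rho = 0.93). Over the 9 libraries without EGF replicate 5 their r was 0.98 and 0.93. For Mdm2 they were Gpatch2l (r = 0.97, rho = 0.88), Sat1 of polyamine breakdown (r = 0.96, rho = 0.83) and Eif2ak3, the kinase PERK of the endoplasmic reticulum (r = 0.96, rho = 0.75). Leaving that library out gave r of 0.83, 0.82 and 0.79.

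The wider p53 pathway was read from 4 further lists. Of 38 other p53 target genes, 35 were tested, 18 with a log2 fold change above 0 and 17 below (median 0.062), and 0 passed edgeR. An unadjusted p under 0.05 was found for 2 of the 35 (5.71%), fewer than the 8.87% of all genes tested, and without EGF replicate 5 for 3 of 35 (8.57%), against 15.8% of all genes. In that fit 20 were above 0 and 15 below (median 0.032), and 0 passed. The 2 with all libraries were Btg2, an antiproliferative gene, and Plk3, a stress kinase. Btg2 averaged 169.6 ± 24.6 CPM in EGF and 111 ± 11.3 CPM in Saline libraries (SD, n = 5 each), and the groups did not overlap, as for 3.27% of all genes tested. Its edgeR adjusted p was 0.402 (log2 fold change 0.61), and 0.0690 (0.54) without EGF replicate 5, while DESeq2 and limma-voom with quality weights called it higher (DESeq2 adjusted p = 0.00191, limma-voom adjusted p = 0.0389). It responds to many signals beside p53. Plk3 was at 25.3 ± 5.52 against 16.2 ± 5.17 CPM, a log2 fold change of 0.65 (edgeR adjusted p = 0.552) that was 0.52 without EGF replicate 5 (edgeR adjusted p = 0.241). Polk, a polymerase that copies past lesions, and Pidd1, a death domain adaptor, had log2 fold changes of 0.97 and 0.69 with all libraries and 0.22 each without EGF replicate 5.

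The apoptosis genes of that list did not pass either. Bax, a pore former of mitochondria, was at 4.22 ± 2.63 CPM in EGF and 6.14 ± 0.403 CPM in Saline libraries, and in EGF libraries at 5.28 ± 1.33 CPM (SD, n = 4) without EGF replicate 5, where it had 0 counts (log2 fold change -0.53 with that library and -0.21 without it). A gene on the same strand, Gm45808, covers 12.2% of the exonic bases of Bax. Bbc3, which encodes PUMA, was at 4.85 ± 2.89 and 5.49 ± 1.51 CPM, and its log2 fold change went from -0.18 to 0.13 without EGF replicate 5. Pmaip1, which encodes NOXA, was at 11.6 ± 7.95 and 10.3 ± 2.10 CPM, with a log2 fold change of 0.16 that was 0.46 without EGF replicate 5 (edgeR adjusted p = 0.396 in that fit). Fas, a death receptor gene, had 3 to 15 counts in 9 libraries and 66 in EGF replicate 5 and was not tested. Gadd45a, a growth arrest gene with an opposite-strand transcript over 19.1% of its exonic bases, was at 15.1 ± 2.87 and 14.0 ± 2.95 CPM (SD, n = 5 each), and at 14.0 ± 1.97 CPM (SD, n = 4) with EGF when replicate 5 was left out.

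Of 22 regulators of p53, 19 were tested, 14 above 0 and 5 below (median 0.089), and 0 passed edgeR. An unadjusted p under 0.05 was found for 2 of the 19 (10.5%), against 8.87% of all genes tested. In the fit without EGF replicate 5, 12 were above 0 and 7 below (median 0.071), 0 passed, and 4 of the 19 (21.1%) had an unadjusted p under 0.05, against 15.8% of all genes. Trp53bp1, which encodes the break-binding protein 53BP1, was at 149.7 ± 28.2 CPM in EGF and 115 ± 9.77 CPM in Saline libraries (log2 fold change 0.38, edgeR adjusted p = 0.552), and opposite-strand exons overlap 15% of its own. Atm, the kinase gene of the break response, was at 171 ± 15.6 and 150.1 ± 8.46 CPM (log2 fold change 0.19, edgeR adjusted p = 0.552). These were the 2 regulators with an unadjusted p under 0.05, and their log2 fold changes without EGF replicate 5 were 0.26 and 0.15 (edgeR adjusted p = 0.180 and 0.313). Mdm4, the partner of Mdm2 in holding p53 in check, was at 156 ± 19.3 and 147 ± 12.9 CPM (log2 fold change 0.089, and 0.15 without EGF replicate 5). Sirt1, a deacetylase that acts on p53, was at 35.1 ± 5.52 and 41.2 ± 2.84 CPM (SD, n = 5 each; log2 fold change -0.23, edgeR adjusted p = 0.576, and -0.17 without EGF replicate 5).

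Of 27 partners and paralogues of the 10 genes, 23 were tested, 13 above 0 and 10 below (median 0.062), and 0 passed edgeR, with 2 (8.70%) at an unadjusted p under 0.05, where 8.87% of all genes were. Without EGF replicate 5, 24 were tested, 14 above 0 and 10 below (median 0.040), 0 passed, and 12.5% had an unadjusted p under 0.05, against 15.8% of all genes. Cdkn1b, the p27 paralogue of Cdkn1a, was at 131 ± 16.7 CPM in EGF and 106 ± 6.45 CPM in Saline libraries (log2 fold change 0.30, edgeR adjusted p = 0.552), and the groups did not overlap, as for 3.27% of all genes tested. Its highest level, 160 CPM, was in EGF replicate 5, and without that library its log2 fold change was 0.22 (edgeR adjusted p = 0.168). Tnfsf10, the TRAIL ligand of Tnfrsf10b, was at 57.5 ± 17.7 and 52.9 ± 5.02 CPM, and its log2 fold change went from 0.12 to -0.080 without EGF replicate 5. Eda, the ligand gene for Eda2r, had 6 to 18 counts in 9 libraries and 0 in EGF replicate 5. Among paralogues, Sesn1 was at 67.3 ± 5.22 and 64.5 ± 5.24 CPM, Sesn3 at 48.8 ± 1.37 and 46.1 ± 5.85 CPM and Ccng2 at 31.1 ± 7.64 and 33.3 ± 3.69 CPM (SD, n = 5 each). Their log2 fold changes were 0.062, 0.082 and -0.10, and 0.040, 0.089 and 0.0061 without EGF replicate 5. Of the kinase and replication partners, Cdk2 had a log2 fold change of 0.20, Pcna of -0.22 and the kinase gene Akt1 of -0.19 (edgeR adjusted p = 0.552 each), which were 0.15, -0.16 and -0.19 without EGF replicate 5.

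Of 20 cell cycle genes that p53 represses through p21, all were tested, 6 above 0 and 14 below (median -0.19). By comparison, 48.5% of all genes tested were above 0. In that list 0 passed edgeR and 0 had an unadjusted p under 0.05, against 8.87% of all genes tested. In the fit without EGF replicate 5 there were 5 above and 15 below (median -0.13), and 4 (20%) had an unadjusted p under 0.05, all lower, where 15.8% of all genes did. Ccna2, cyclin A2, was at 109 ± 34.9 CPM in EGF and 142 ± 11.1 CPM in Saline libraries. Ube2c, the gene of a ubiquitin-conjugating enzyme that works with the anaphase-promoting complex, was at 41.3 ± 9.63 and 51.9 ± 5.47 CPM. Their log2 fold changes were -0.38 and -0.33, and -0.22 each without EGF replicate 5. The mitotic kinase gene Plk1 was at 42.4 ± 6.91 and 50.6 ± 7.83 CPM (SD, n = 5 each), and its log2 fold change was -0.26 with all libraries and -0.35 without EGF replicate 5 (edgeR adjusted p = 0.584 and 0.210). Kif23, a kinesin of cytokinesis, was above 0 at 0.40, and at 0.13 without that library. Opposite-strand exons overlap 12.5% of the exonic bases of Ccna2, 22.8% of Ube2c and 7.1% of Plk1.

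**Figure D4:**
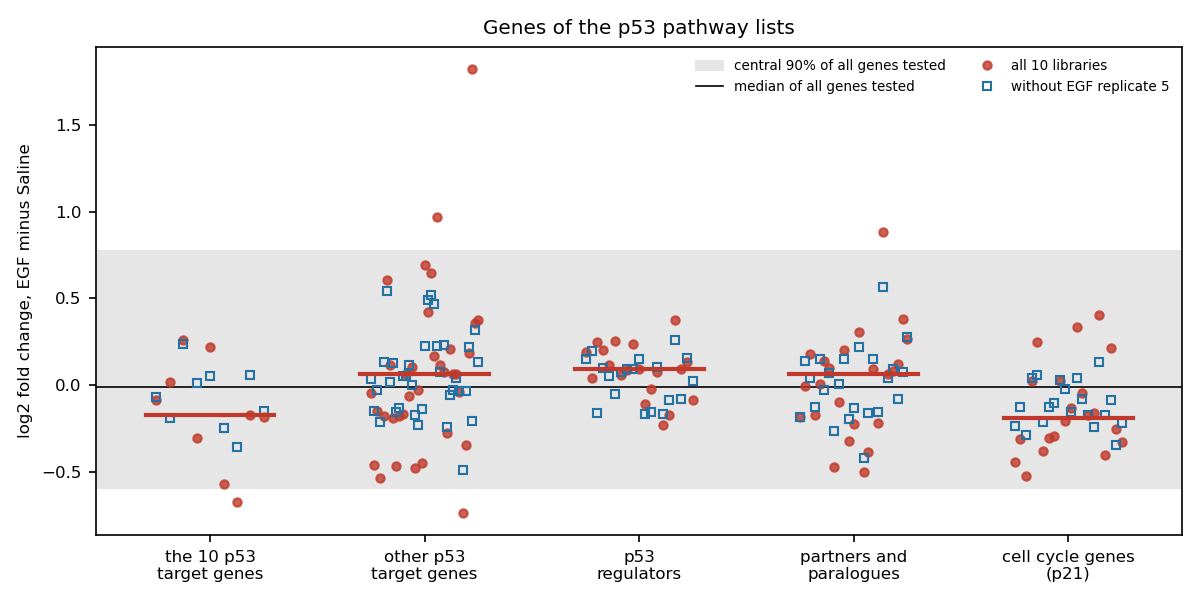
Log2 fold change (EGF minus Saline, edgeR) of every tested gene of the 10 p53 target genes and of the 4 further lists, from all libraries (red, bar at the median) and without EGF replicate 5 (blue squares). The grey band, from -0.60 to 0.77, holds the central 90% of all genes tested in the fit with all libraries, and does not apply to the blue squares. In that fit the medians of the 5 lists lie between -0.19 and 0.089.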

How the data were processed

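RNA of 10 HSPC libraries was extracted with a Qiagen RNeasy Micro kit and made into libraries with a Clontech kit after rRNA depletion, per the labels' protocols. Per the submitters' processing notes, STAR and bcl2fastq 2.17 were used, with GRCm38/mm10; a counting tool and strand setting were not given in the sources used here. The values deposited by the authors are raw whole-number counts per gene, with no normalization. Symbols are those of the files. GENCODE M21 names replaced 27 that differed between the files or had the form of a date, a time or a number. No file held a row without a gene.

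EGF and Saline were compared with edgeR 4.0.16 (TMM, filterByExpr with a minimum count of 10, quasi-likelihood F test, threshold 0.05). Standard errors and 95% intervals come from the F statistic, and CPM are TMM scaled. The fit was tested on simulated counts in which each gene had the same spread in every library. That test does not cover a library like EGF replicate 5. DESeq2 1.42.0 and limma 3.58.1 were alternatives, and so were other scalings, filters, a robust fit, the replicate number as a block and each library left out; fits without EGF replicate 5 by other tools were added after seeing the data. The genes and lists were chosen with earlier results of these data known. The rule for genes to name takes all 10 genes, the 4 with the smallest p of each list, any that passed, 13 set by name, and the 3 most like Cdkn1a and Mdm2 each; some of these are not reported here. Replicate pairs within a group differed by more than counting noise (chi-square per degree of freedom from 7.08 to 111). PCR copies cannot be told apart, so depth statements cover counting error only.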

Additional observations from a re-analysis of the deposited data

Results flagged for a closer look

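In 72 groups of 5 libraries (36 genes, 2 groups each), the highest or lowest library stood apart from the other 4 in 6, all of them EGF replicate 5. For genes chosen without regard to these values, chance gives about 5% of groups. Some of the genes, Polk, Pidd1 and Kif23 among them, were named for a small p in these same data, so that rate does not apply to them. Among the p53 target genes the flagged gene was Tnfrsf10b, at 0 CPM against 4.71 to 6.18 CPM in the other EGF libraries. The other 5 were high values: Fas at 9.25 CPM against 0.71 to 1.29, Polk at 91.1 CPM against 14.7 to 24.8, Pidd1 at 59.5 CPM against 18.7 to 23.4, Cdkn1b at 160 CPM against 118 to 129, and Kif23 at 272 CPM against 123 to 141.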

How the results depend on the processing

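Over 22 alternatives, the 9 p53 target genes tested gave 198 log2 fold changes, of which 0 were called and 179 kept their sign. DESeq2 with all libraries gave no adjusted p for Eda2r and Tnfrsf10b, so these could not be called there. Of all genes, edgeR called 1; it called 0 by library size and 0 with a replicate block, 0 to 8 with 1 library left out (8 without EGF replicate 5), DESeq2 called 52 and limma-voom with quality weights 12. With EGF replicate 5 left out, DESeq2 called 313, limma-voom 6 and edgeR by library size 8. In the list of other p53 target genes 1 was called, Btg2, by DESeq2 with and without EGF replicate 5 and by limma-voom with all libraries. Ccng1 turned to -0.0024 by library size, -0.017 by upper quartile, -0.18 by limma-voom and -0.032 with the replicate block. With 1 library left out Ccng1 ranged from -0.19 to 0.11, Zmat3 from -0.31 to 0.023, Trp53inp1 from -0.33 to 0.056, Eda2r from -1.15 to 0.011, Pmaip1 from -0.15 to 0.46, Bbc3 from -0.43 to 0.13, Tnfsf10 from -0.080 to 0.21 and Ccng2 from -0.24 to 0.0061. By limma-voom with all libraries Trp53inp1 was 0.078, Bbc3 0.19, Gadd45a -0.00048 and Tnfsf10 -0.045. With EGF replicate 5 left out, DESeq2 gave -0.19 for Ccng1, 0.057 for Trp53inp1, 0.0079 for Eda2r, 0.13 for Bbc3, -0.079 for Tnfsf10 and 0.0078 for Ccng2. In the same libraries limma-voom gave -0.0093 for Mdm2, -0.18 for Ccng1, 0.084 for Trp53inp1, 0.21 for Bbc3, -0.00096 for Gadd45a and -0.041 for Tnfsf10, and edgeR by library size gave -0.17 for Ccng1, 0.084 for Trp53inp1, 0.040 for Eda2r, 0.15 for Bbc3, -0.059 for Tnfsf10 and 0.028 for Ccng2. Causes were not tested. Same-numbered libraries did not deviate together (r from -0.078 to 0.019). The labels do not say whether the numbers pair libraries, and this correlation of deviations from group means cannot exclude it. With the replicate block Pmaip1 was -0.16. The settings that combine a tool with leaving out EGF replicate 5 were chosen after seeing the data.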

Other observations

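Tigar, a p53 target of sugar metabolism singled out after its values were seen, had 28 to 73 counts in 9 libraries and 620 in EGF replicate 5. That library thus held both p53 target genes at 0 counts and p53 target genes far above the other libraries. Extremes both ways were common in it: of all genes tested, 36.3% lay above every Saline library and 50.7% below every one.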
